A study of Mus musculus with 2 samples.

Results

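The T cell cytokine genes described here are Ifng, Il21, Il2, Il17a, Tnf, Lta, Ltb, Il10 and Tgfb1, 9 of the 27998 genes in the count tables. They were chosen by name, as secreted or membrane-bound T cell messengers, not by a measured difference but with earlier results of these data known. They were followed in immune cells taken from islets of the pancreas of female NOD/ShiLtJ mice, an inbred strain that develops autoimmune diabetes without treatment. Cells carrying CD45.1, the allele of the pan-leukocyte surface protein that this strain has, were sorted from islets at 7 weeks or at 12 weeks of age. Each age was captured as 1 droplet-based 3′ single-cell RNA library, and the labels give no treatment, no genotype other than the strain and no number of mice behind a library. With 1 library per age no difference between the ages could be tested, age and library cannot be told apart, and every interval below is a 95% interval for counting error only.

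Interferon gamma (Ifng) is the defining cytokine of type 1 helper T cells, cytotoxic CD8 T cells and natural killer cells, and acts on macrophages and on beta cells through the receptor chains Ifngr1 and Ifngr2. Interleukin 21 (Il21) is made chiefly by CD4 helper T cells and acts on B cells and CD8 T cells, while interleukin 2 (Il2) feeds T cell growth and the survival of Foxp3 regulatory T cells. Tnf, Lta and Ltb are neighbouring members of the tumour necrosis factor family: Tnf is a secreted inflammatory mediator, and lymphotoxin alpha (Lta) joins lymphotoxin beta (Ltb) on the lymphocyte surface to signal for lymphoid tissue organisation. Interleukin 10 (Il10) and transforming growth factor beta 1 (Tgfb1) restrain immune responses and are made by regulatory T cells among others, and interleukin 17A (Il17a) is the product of type 17 and many gamma-delta T cells.

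The positions of the members set 2 groups of neighbours apart. In GRCm38, Il2 lies on chromosome 3 from 37120523 to 37125959 and Il21 from 37222759 to 37232636, both on the minus strand and 96.8 kb apart. Ltb, Tnf and Lta lie within one stretch of chromosome 17, with 3060 bases between Ltb and Tnf and 1157 bases between Tnf and Lta. RefSeq promoter sequences matched 8 of the 9 members, all except Il10. The 4 promoters below are each the 250 bases before the RefSeq start on the gene's own strand in GRCm38.p6. They are shown because the results turn on these genes. Ifng and Il21 were often found in the same CD4 T cells. Il2, the neighbour of Il21, was not told apart from B cells by share of positive cells. Tnf was lower in CD4 T cells at 12 weeks. The promoters are reference sequences and were not read from the NOD mice. Capitals mark the letters GGAAA or their complement TTTCC, the core bound by NFAT, a factor activated by T cell receptor signalling.
Ifng, chr10:118440796-118441045, plus strand: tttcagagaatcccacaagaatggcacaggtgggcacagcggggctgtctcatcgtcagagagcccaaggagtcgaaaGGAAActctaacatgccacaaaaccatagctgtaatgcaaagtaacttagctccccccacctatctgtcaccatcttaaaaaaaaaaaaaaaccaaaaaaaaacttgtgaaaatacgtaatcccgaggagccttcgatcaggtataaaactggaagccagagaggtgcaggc
Il21, chr3:37232637-37232886, minus strand: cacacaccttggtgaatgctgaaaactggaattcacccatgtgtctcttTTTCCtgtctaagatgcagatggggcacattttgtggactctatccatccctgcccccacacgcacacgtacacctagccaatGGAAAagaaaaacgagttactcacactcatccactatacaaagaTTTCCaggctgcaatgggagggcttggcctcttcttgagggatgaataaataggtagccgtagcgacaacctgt
Il2, chr3:37125955-37126204, minus strand: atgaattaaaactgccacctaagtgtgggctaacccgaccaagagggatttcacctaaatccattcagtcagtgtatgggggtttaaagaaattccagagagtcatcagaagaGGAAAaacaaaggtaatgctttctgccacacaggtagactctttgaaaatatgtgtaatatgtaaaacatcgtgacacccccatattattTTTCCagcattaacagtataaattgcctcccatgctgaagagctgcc
Tnf, chr17:35202008-35202257, minus strand: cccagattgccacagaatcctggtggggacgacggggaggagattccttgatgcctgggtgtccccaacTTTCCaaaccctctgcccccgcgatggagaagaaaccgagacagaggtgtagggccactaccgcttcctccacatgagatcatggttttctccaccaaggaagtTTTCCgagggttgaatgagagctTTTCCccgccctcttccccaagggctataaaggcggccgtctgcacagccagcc
The core occurred 1 time before Ifng, 3 times before Il21, 2 times before Il2 and 3 times before Tnf, on either strand. It was present in 55.6% of 32851 mouse promoters of the same length and is common. The AP-1 letters TGANTCA, found in 6.75% of promoters, and the T-box letters GGTGTGA, found in 3.33%, were at 0 in these 4 windows, which says only that these letters are not there.

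After removal of damaged cells and likely doublets, 1099 cells remained at 7 weeks and 2741 at 12 weeks, with medians of 5643 and 4924 UMIs (unique molecular identifiers, each standing for a captured RNA molecule). The libraries had 2 cell barcodes in common. Classes were set by gate genes: CD4 T cells had at least 1 Cd4 UMI and no Cd8a, Cd8b1 or Foxp3 UMI (306 and 767 cells), Foxp3 T cells at least 1 Foxp3 UMI (84 and 103), CD8 T cells at least 2 Cd8a or Cd8b1 UMIs and no Cd4 UMI (171 and 461), and each also had a Cd3 UMI and under 2 Cd79a UMIs. Cells with at least 1 UMI of Ncr1, the natural cytotoxicity receptor NKp46, numbered 95 and 75, and B cells with at least 2 Cd79a UMIs and no Cd3 UMI numbered 114 and 482. The B cells served as the measure of background, at median depths of 4957 and 4544.5 UMIs. The median depths were 5621 and 4638 UMIs in CD4 T cells, 6845.5 and 5772 in Foxp3 T cells, 6233 and 5381 in CD8 T cells and 5897 and 4949 in Ncr1 cells. Markers that no gate used followed the B and Foxp3 classes: Ms4a1 was found in 92.1% and 97.1% of B cells against 2.94% and 2.74% of CD4 T cells, and Ctla4 in 78.6% and 71.8% of Foxp3 T cells against 34.97% and 29.3% of CD4 T cells. Ncr1 cells were mixed, with Klre1 in 56.8% and 65.3% and Cd3e in 51.6% and 49.3%, and are called by the gate gene alone. Foxp3 T cells had a Cd4 UMI in 75% and 67.0% and a Cd8a UMI in 17.9% and 14.6%, and 2 and 5 of them were also counted as CD8 T cells. RNA of other cells differed between the ages: the 7 islet endocrine markers summed to between 0.138 and 0.373 UMIs per 10000 in the 5 classes at 7 weeks and between 1.15 and 16.3 at 12 weeks, highest in CD4 T cells. The 10 macrophage markers summed to 22.1 per 10000 in Foxp3 T cells at 7 weeks and 3.81 at 12 weeks.

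For each member the share of cells with at least 1 UMI is given first as measured. It is then given as the share expected if every cell were read at 3000 UMIs. This evens out depth for the member alone and leaves out the 53 shallower cells of the 7-week library. Gate genes were read at full depth unless stated otherwise, so class membership still depended on depth. Levels are summed UMIs of the gene per 1000000 UMIs of the class (CPM), and the ratio of 12 to 7 weeks compares these sums. A ratio of at least 1.5 or at most its inverse is called past the fold, among genes with at least 20 UMIs over both libraries.

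In CD4 T cells 3 of the 8 members with enough UMIs, Ifng, Tnf and Lta, were past the fold with a lower value at 12 weeks and 0 were higher, where 10.3% of all 9754 genes tested in the class were lower and 8.25% higher. All 3 had counting intervals that left out 1, which held for 6.67% of genes lower by the fold and 4.14% higher. The interval of a ratio treats UMIs as independent, so the spread between cells is not in it. In Foxp3 T cells 3 of 7 members, Il10, Il2 and Tnf, were lower and 1, Lta, was higher, against 15.3% and 14.7% of 6887 genes. All 4 intervals left out 1, as did those of 8.73% of genes lower by the fold and 8.48% higher. CD8 T cells had 1 of 7 lower, Lta, and 0 higher, beside 9.51% and 10.1% of 8942 genes; with an interval that leaves out 1 it was 0 and 0 members, beside 5.14% and 3.78%. Ncr1 cells had 1 of 4 lower, Tnf, and 0 higher, beside 14% and 11.6% of 5537 genes; with an interval that leaves out 1 it was again 0 and 0, beside 5.13% and 4.03%. B cells had 1 of 5 lower, Il2, and 0 higher, beside 10.8% and 15.4% of 7672 genes, and 0 and 0 with an interval that leaves out 1, beside 4.37% and 4.25%. The median log2 ratio over the members was -0.26 in CD4 T cells, where that of all genes tested was 0.01. Of genes of naive T cells, 4 were past the fold with a higher value in CD4 T cells: Ccr7 at 1.80 (1.54 to 2.11), Lef1 at 1.82 (1.60 to 2.08), Il7r at 2.33 (1.95 to 2.79) and Dapl1 at 1.76 (1.46 to 2.12). Tcf7, S1pr1 and Klf2, of the same kind, stood at 0.724 (0.654 to 0.801), 1.18 (0.9996 to 1.39) and 0.769 (0.610 to 0.974). The part of these genes' cells in the cytokine values was not tested.

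At 3000 UMIs Ifng stood above B cells in CD4 T, CD8 T and Ncr1 cells at both ages. In Foxp3 T cells it did so at 12 weeks only. Its share was highest in CD8 T cells and Ncr1 cells. At 7 weeks 34.3% (29.0% to 39.9%) of CD4 T cells had an Ifng UMI, and at 12 weeks 25.4% (22.4% to 28.7%). At 3000 UMIs per cell these shares were 23.5% and 17.8%, a difference of -5.75 points (-11.5 to -0.423). B cells had 7.02% and 2.07%, or 3.84% and 1.44% at 3000 UMIs, and the excess of CD4 T cells over B cells at that depth was 19.7 points (12.6 to 25.3) and 16.3 points (13.4 to 19.3). The CD4 T cells held 474 Ifng UMIs at 7 weeks and 520 at 12 weeks, or 211 and 113 CPM, a ratio of 0.535 (0.471 to 0.607).

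A few cells held much of these sums. The highest CD4 T cell at 7 weeks held 100 Ifng UMIs among its 6678 UMIs and the next 59, and the 5 highest held 45.4% of the class's Ifng UMIs. At 12 weeks the highest cell held 37 and the 5 highest 18.3%. A 12-week cell outside the gates held 49, with 66 Cd3 and 8 Cd4 UMIs and no Cd8a or Foxp3 UMI. It is not in the values for CD4 T cells. In CD4 T cells the Ifng UMIs were 50% accounted for by 8 cells at 7 weeks and by 33 at 12 weeks. Without the Ifng UMIs of the 5 highest cells of each library, and with the class totals unchanged, the ratio was 0.7998 (0.684 to 0.937). Later ratios without the 5 highest cells were formed in this way. The trimming is unequal where class sizes differ: here the 5 came from 105 positive cells at 7 weeks and from 195 at 12 weeks. Log2 ratios without the highest or the 5 highest cells also left those cells out of the totals. The 5 highest cells at 7 weeks held 52 to 68 Cd3 UMIs, and neither these nor the 5 at 12 weeks had an Ncr1 or Cd79a UMI. The 10 natural killer markers in CD4 T cells summed to 1.17 and 0.494 per 10000 UMIs, all 10 detected at both ages, and 12 and 5 CD4 T cells had an Ncr1 UMI; the part of such cells in the lower sum was not tested. The 10 immediate early genes summed to 40.5 and 35.6 UMIs per 10000 in CD4 T cells, and the 10 macrophage markers to 9.51 and 19.7; their part was not tested either.

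**Figure D1:**
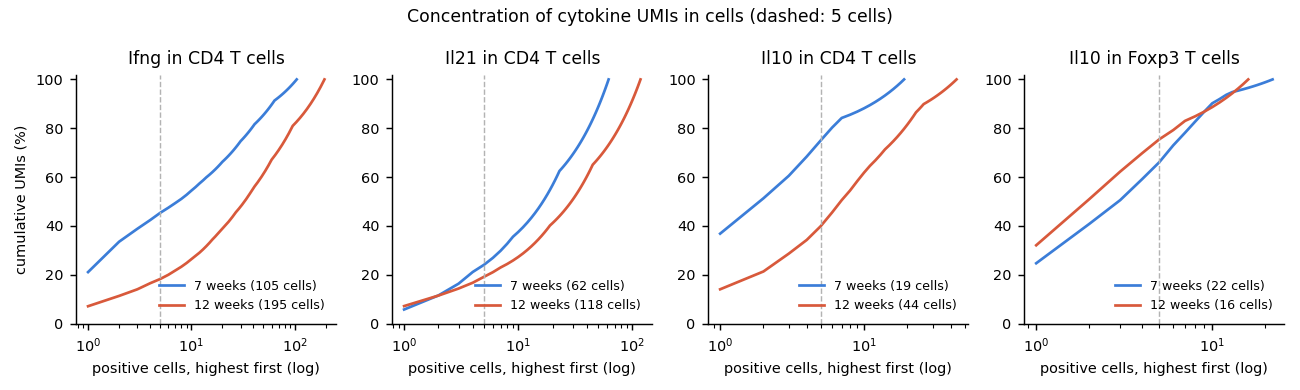
Cumulative share of a cytokine's UMIs (vertical axis, percent) over positive cells ordered from highest to lowest (horizontal axis, log scale), for Ifng, Il21 and Il10 in CD4 T cells and Il10 in Foxp3 T cells. Blue is 7 weeks, red is 12 weeks, and the dashed line marks 5 cells, which held 45.4% and 18.3% of the Ifng UMIs of CD4 T cells at the earlier and later age.

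In CD8 T cells Ifng was found in 44.4% (36.9% to 52.2%) of cells at 7 weeks and 31.5% (27.2% to 35.9%) at 12 weeks, or 30.2% and 22.0% at 3000 UMIs. The summed level differed less, with 249 and 520 UMIs, 169.5 and 149 CPM and a ratio of 0.882 (0.757 to 1.03) whose interval includes 1. A smaller share of cells carried the gene at 12 weeks, and positive cells averaged 3.59 UMIs against 3.28. Cycling cells, defined by cell division genes, were 12.9% and 10.8% of CD8 T cells, and their Ifng went the other way, with 37 and 173 UMIs and a ratio of 2.32 (1.62 to 3.404). In the CD8 T cells that were not cycling the ratio was 0.646 (0.543 to 0.770).

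Ncr1 cells had Ifng in 44.2% and 37.3% of cells, or 31.1% and 28.6% at 3000 UMIs. Their summed level was 173 CPM from 122 UMIs at 7 weeks and 253 CPM from 112 UMIs at 12 weeks, a ratio of 1.46 (1.12 to 1.90). A cell with 59 Ifng UMIs, 15 Ncr1 UMIs and no Cd3 UMI held most of the 12-week sum, and without the 5 highest cells the ratio was 0.855 (0.550 to 1.31). Foxp3 T cells had Ifng in 19.0% and 12.6% of cells, which came to 7.94% and 7.31% at 3000 UMIs. The difference from B cells at that depth was 4.09 points (-2.78 to 12.5) at 7 weeks and 5.87 points (1.94 to 12.6) at 12 weeks. Of the 38 Ifng UMIs of Foxp3 T cells at 12 weeks, 13 lay in a cycling cell of 43766 UMIs. A further 5 lay in a cell with 29 Cd8a UMIs and 4 in a cell with 44, both with 1 Foxp3 UMI and no Cd4 UMI. Among cells with a Cd3 UMI that met no gate (297 and 693 cells), Ifng was found in 21.5% and 13.9%, so the gates missed 13.8% and 22.6% of the libraries' Ifng UMIs. The summed level of these ungated cells was 60.0 and 69.2 CPM, a ratio of 1.15 (0.945 to 1.42). No alternative setting admitted cells with a Cd8 UMI to the CD4 T gate.

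**Figure D2:**
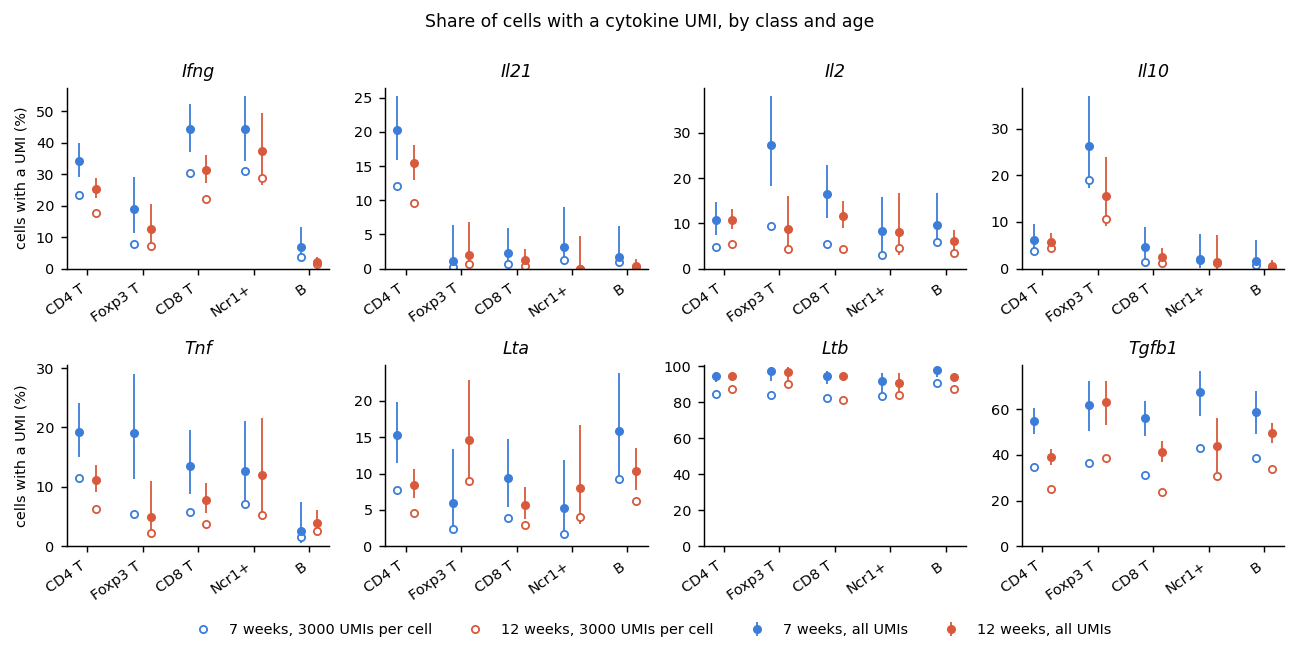
Share of cells with at least 1 UMI (vertical axis, percent) for 8 cytokine genes in CD4 T, Foxp3 T, CD8 T, Ncr1 and B cells at 7 weeks (blue) and 12 weeks (red). Filled points with bars are shares as measured with exact binomial 95% intervals, and open points are shares expected at 3000 UMIs per cell; Il21 stands above the B cells in CD4 T cells, with 20.3% and 15.4% of cells.

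Il21 was, among the 5 classes, a gene of CD4 T cells. It was found in 20.3% (15.9% to 25.2%) of them at 7 weeks and 15.4% (12.9% to 18.1%) at 12 weeks, or 12.0% and 9.53% at 3000 UMIs. In B cells it reached 0.921% and 0.180% at that depth, and the excess in CD4 T cells was 11.1 points (5.88 to 15.4) and 9.35 points (7.25 to 11.6). For CD8 T, Foxp3 T and Ncr1 cells the differences from B cells had intervals that included 0 at both ages. CD4 T cells held 75.4% of all Il21 UMIs of the 7-week library and 73.6% at 12 weeks.

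The summed Il21 level of CD4 T cells was 46.2 CPM from 104 UMIs and 45.2 CPM from 209 UMIs, a ratio of 0.9796 (0.771 to 1.25). The 5 highest cells held 24.0% and 19.1% of these UMIs, with at most 6 and 15 in a cell. Foxp3 T cells at 12 weeks had 12 Il21 UMIs, 11 of them in the cycling cell of 43766 UMIs that also led their Ifng.

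Il2, next to Il21 on chromosome 3, was not detected above background by share. At both ages 10.8% of CD4 T cells had an Il2 UMI, against 9.65% and 6.02% of B cells. At 3000 UMIs the shares were 4.74% and 5.45% in CD4 T cells and 5.92% and 3.46% in B cells, and all 8 differences of a T or Ncr1 class from B cells had intervals that included 0. Foxp3 T cells had 27.4% at 7 weeks and 8.74% at 12 weeks as measured but 9.35% and 4.36% at 3000 UMIs, and at that depth the difference of -4.99 points (-13.8 to 2.48) included 0. The 29 and 12 Il2 UMIs of Foxp3 T cells gave a ratio of 0.416 (0.193 to 0.840). The sums in CD4 T cells were 50 and 124 UMIs, a ratio of 1.21 (0.864 to 1.71). At 7 weeks this was 22.2 CPM (16.5 to 29.3), where B cells had 18.4 CPM (9.49 to 32.1). At 12 weeks CD4 T cells had 26.8 CPM (22.3 to 32.0) and B cells 11.4 CPM (7.61 to 16.3), intervals that did not meet. Of the 124 UMIs, 32 lay in 1 cell. Positive cells mostly held 1 UMI, 22 of 33 CD4 T cells at 7 weeks and 77 of 83 at 12 weeks. The highest was a CD4 T cell at 12 weeks with 32 Il2 UMIs, 22 Ifng UMIs, 19 Cd4 UMIs and 13 Lag3 UMIs.

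Tnf was lower in CD4 T cells at 12 weeks, and at equal depth it was found most often in these cells and in cells with macrophage markers. At 7 weeks 19.3% (15.0% to 24.2%) of CD4 T cells had a Tnf UMI and at 12 weeks 11.2% (9.07% to 13.7%), or 11.6% and 6.34% at 3000 UMIs, where B cells had 1.48% and 2.50%. B cells can express Tnf themselves, so for this gene they are a comparison and not a background. The 110 and 101 UMIs came to 48.9 and 21.9 CPM, a ratio of 0.448 (0.338 to 0.592). Without the 5 highest cells it was 0.570 (0.416 to 0.783). The highest CD4 T cell at 7 weeks, with 13 Tnf UMIs among 11980, had a Cd3 sum of 1 and 1 Cd4 UMI, so its class rests on those 2 molecules. Foxp3 T cells had 18 and 5 Tnf UMIs, a ratio of 0.279 (0.0810 to 0.780), and at 3000 UMIs their difference from B cells included 0 at both ages. CD8 T cells had 25 and 47 UMIs and a ratio of 0.794 (0.479 to 1.35). Ncr1 cells had 27 and 11 UMIs and a ratio of 0.647 (0.290 to 1.35), with 14 of the 27 in 1 cell. Cells with at least 5 of 10 macrophage markers had Tnf in 3 of 15 cells and 8 of 49, or 10.4% and 9.15% at 3000 UMIs.

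Lta, whose product pairs with that of Ltb, was found in 15.8% and 10.4% of B cells. The shares were 15.4% and 8.47% for CD4 T cells, 9.36% and 5.64% for CD8 T cells and 5.95% and 14.6% for Foxp3 T cells. B cells make lymphotoxin, so they are no background for this gene, and cells with macrophage markers were used instead: 0 of 15 and 0 of 49 were positive, which, with 3 counts of the total as the limit that a count of 0 allows here and below, leaves shares of up to 20% and 6.12%. In CD4 T cells Lta had 69 and 93 UMIs and a ratio of 0.657 (0.476 to 0.910), or 0.670 (0.455 to 0.993) without the 5 highest cells. CD8 T cells held 22 and 33 Lta UMIs, a ratio of 0.633 (0.358 to 1.14). Its sums in Foxp3 T cells were 12 and 40 UMIs, a ratio of 3.35 (1.72 to 7.01). Of the 40 UMIs, 13 and 10 lay in cells of 40361 and 28043 UMIs with 1 Foxp3 UMI each, and requiring 2 Foxp3 UMIs brought the log2 ratio from 1.74 to -0.019. Reading the gate genes after thinning brought it to -0.061.

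Ltb was carried by nearly all lymphocytes at both ages. It was found in 90.7% to 98.2% of cells of the 5 classes as measured, and in 81.5% to 90.6% at 3000 UMIs. The macrophage-marker cells stood apart at 28.5% and 25.5%. CD4 T cells had 875 and 951 CPM, a ratio of 1.09 (1.03 to 1.15), and CD8 T cells 697 and 695 CPM, a ratio of 0.998 (0.927 to 1.07). Foxp3 T cells had 852 and 1171 CPM, a ratio of 1.38 (1.25 to 1.51), which lay under the fold used here.

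**Figure D3:**
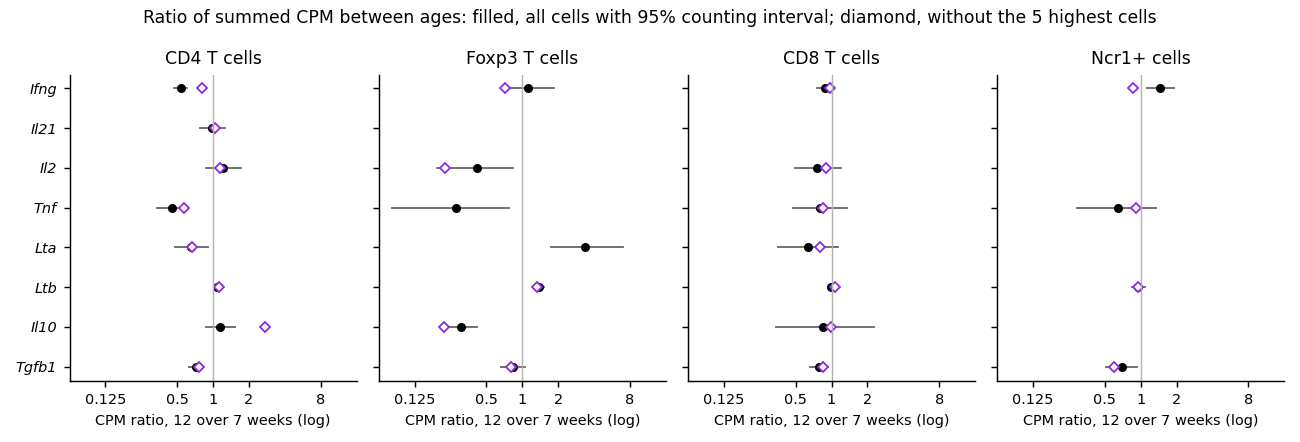
Ratio of summed CPM at 12 weeks over 7 weeks (horizontal axis, log scale) for each cytokine with at least 20 UMIs in CD4 T, Foxp3 T, CD8 T and Ncr1 cells. Filled points with bars are all cells with the 95% counting interval. Diamonds leave the UMIs of the 5 highest cells of each library out of the gene's sum, with class totals unchanged. None can be drawn for Lta and Tnf in Foxp3 T cells. Ifng in CD4 T cells moves from 0.535 to 0.7998.

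Il10 was, by its library total, held mainly by Foxp3 T cells at 7 weeks and by CD4 T cells without a Foxp3 UMI at 12 weeks. In Foxp3 T cells it was found in 26.2% (17.2% to 36.9%) of cells at 7 weeks and 15.5% (9.15% to 24.0%) at 12 weeks, or 19.1% and 10.7% at 3000 UMIs. The difference between the ages was -10.7 points (-22.4 to 0.962) as measured and -8.41 points (-19.4 to 1.91) at 3000 UMIs. Both intervals included 0. B cells had 0.769% and 0.322% at that depth. The Foxp3 T cells held 174 and 53 Il10 UMIs, 197 and 60.4 CPM, a ratio of 0.306 (0.221 to 0.418). They held 55.6% of the library's Il10 UMIs at 7 weeks and 18.9% at 12 weeks, as 84 of 1099 and 103 of 2741 cells. At 12 weeks their level was still above the 38.5 CPM of CD4 T cells, whose share at 3000 UMIs was 4.34%.

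Few cells carried these sums. At 7 weeks 22 Foxp3 T cells were positive and the highest held 43, 28, 17, 15 and 12 Il10 UMIs, 66.1% of the class's total. At 12 weeks 16 were positive, led by cells with 17 and 10 UMIs, and the 5 highest held 75.5%. Without those 5 cells in each library the ratio was 0.221 (0.111 to 0.408). The macrophage-marker RNA of this class was also lower at 12 weeks, at 22.1 and 3.81 UMIs per 10000 with 10 and 9 of the 10 markers detected and Adgre1 at 0 at 12 weeks. The same sum was 9.19 and 7.02 in CD8 T cells, 25.8 and 28.6 in Ncr1 cells and 4.16 and 7.62 in B cells, and its part in the result was not tested. Cells with macrophage markers held no Il10 UMI in the 15 cells at 7 weeks, which allows a share of up to 20%, and 3 Il10 UMIs in 2 of 49 cells at 12 weeks. The 10 immediate early genes, which respond to stimulation and to tissue handling, summed to 36.7 and 21.8 UMIs per 10000 in Foxp3 T cells, and their part in the result was not tested.

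In CD4 T cells without a Foxp3 UMI, Il10 was found in 6.21% (3.78% to 9.53%) and 5.74% (4.20% to 7.62%) of cells, or 3.89% and 4.34% at 3000 UMIs. The excess over B cells at that depth was 3.12 points (-1.22 to 6.06) at 7 weeks and 4.02 points (2.41 to 5.72) at 12 weeks. The sums were 76 and 178 UMIs, or 33.8 and 38.5 CPM, and the ratio 1.14 (0.868 to 1.51). The 5 highest cells held 75.0% and 39.9% of these UMIs, led by a cell with 28 UMIs at 7 weeks. Without these cells the ratio was 2.75 (1.67 to 4.74). The 5 came from 19 positive cells at 7 weeks and from 44 at 12 weeks, so a larger part of the 7-week sum was removed. The split between the classes turns on whether a Foxp3 molecule was captured: 37 of the 84 Foxp3 T cells at 7 weeks and 52 of 103 at 12 weeks had 1 Foxp3 UMI. When gate genes were read at 3000 UMIs per cell, the log2 ratio of Il10 was -0.67 in CD4 T cells, where it was 0.19 at full depth, and -0.96 in Foxp3 T cells, where it was -1.71. As a joint class, CD4 and Foxp3 T cells held 250 and 231 Il10 UMIs, 79.8 and 42.0 CPM, a ratio of 0.527 (0.439 to 0.632), and 0.733 (0.573 to 0.939) without the 5 highest cells.

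Tgfb1 was found in 39.1% to 67.4% of cells in every class and was lower at 12 weeks in most of them. The ratio was 0.712 (0.624 to 0.812) in CD4 T cells, 0.782 (0.655 to 0.935) in CD8 T cells, 0.691 (0.511 to 0.926) in Ncr1 cells and 0.493 (0.366 to 0.668) in macrophage-marker cells. In Foxp3 T cells, with 176 and 146 UMIs, it was 0.834 (0.665 to 1.04), and in B cells 0.814 (0.652 to 1.02). None of the values in the 5 gated classes reached the fold.

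Il17a was nearly absent. It had 12 UMIs in 2 of the 1099 cells at 7 weeks and 0 in 2741 cells at 12 weeks, which allows a share of up to 0.109%. No cell of the 5 classes had an Il17a UMI, which in CD4 T cells allows shares of up to 0.9804% and 0.391%. Of the 12 UMIs, 11 lay in a cell with 20 Cd3 UMIs, no Cd4 or Cd8a UMI, 9 UMIs of Cd163l1, a marker of gamma-delta T cells, 6 of Il17f and 5 of Cxcr6. The other UMI lay in a cell with 11 Cd79a UMIs and 1 Cd3 UMI.

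Co-expression was counted for all 36 pairs of members in each class and library, and the pairs named other than Ifng with Il21 were chosen after their values were seen. Ifng was found more often in CD4 T cells with an Il21 UMI than in those without. At 7 weeks 32 CD4 T cells had both: Ifng was found in 51.6% of Il21-positive cells and 29.9% of the others, a difference of 21.7 points (8.12 to 34.8). At 12 weeks 54 cells had both, 45.8% against 21.7%, a difference of 24.0 points (14.7 to 33.5). Positive cells were deeper, with medians of 6326 against 5576 UMIs at 7 weeks and 5572 against 4517 at 12 weeks. At 3000 UMIs per cell the shares were 37.4% against 21.6% and 34.0% against 16.1%, differences of 15.8 points (0.790 to 32.8) and 18.0 points (7.73 to 29.7). The 7-week interval included 0 when at least 2 Cd4 UMIs were required, at 15.0 points (-1.73 to 33.5), and without the 5 highest cells, at 13.5 points (-1.22 to 31.0). Il21-positive cells held 48.9% and 45.0% of the Ifng UMIs of CD4 T cells.

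Il10 overlapped with Il21 and not detectably with Ifng. Among CD4 T cells without a Foxp3 UMI, 10 of 19 Il10-positive cells had an Il21 UMI at 7 weeks, 52.6% against 18.1% of the others, and 16 of 44 at 12 weeks, 36.4% against 14.1%. The differences were 34.5 points (13.0 to 55.0) and 22.3 points (9.38 to 37.2), and at 3000 UMIs the shares were 46.1% against 10.6% and 24.3% against 8.86%. For Ifng the corresponding differences were 8.31 points (-11.5 to 30.5) and 1.962 points (-9.45 to 16.8). A cell at 12 weeks led both genes, with 25 Il10 and 15 Il21 UMIs, 7 Ifng UMIs and 23 Lag3 UMIs. In Foxp3 T cells at 7 weeks 6 of the 22 Il10-positive cells had an Ifng UMI, a difference from the others of 11.1 points (-6.80 to 33.2).

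**Figure D4:**
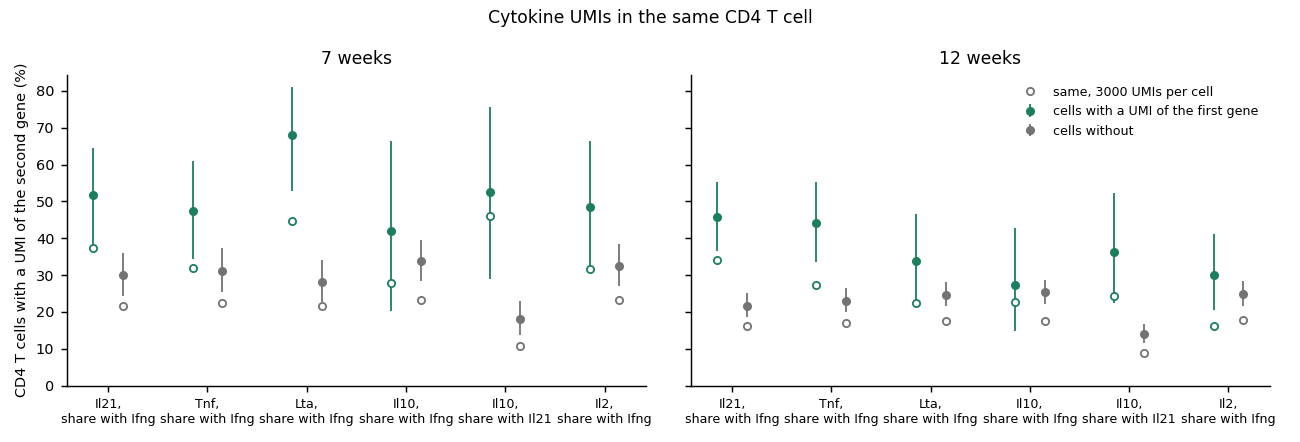
Share of CD4 T cells with a UMI of a second cytokine (vertical axis, percent) among cells with (green) and without (grey) a UMI of the first, at 7 and 12 weeks. Filled points with bars are measured shares with exact binomial 95% intervals and open points are shares expected at 3000 UMIs per cell; Ifng was found in 51.6% of Il21-positive and 29.9% of Il21-negative cells at 7 weeks.

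Ifng was also found more often in CD4 T cells with a Tnf or Lta UMI. Ifng was found in 47.5% of Tnf-positive CD4 T cells against 31.2% of the others at 7 weeks and in 44.2% against 23.1% at 12 weeks, differences of 16.3 points (2.68 to 29.9) and 21.1 points (10.6 to 32.1). At 3000 UMIs these shares were 32.1% against 22.4% and 27.2% against 17.1%. For Lta the difference was 39.9 points (24.5 to 52.5) at 7 weeks, from 68.1% against 28.2%, and 9.20 points (-1.63 to 21.7) at 12 weeks. Thinned, the shares for Lta were 44.8% against 21.8% and 22.4% against 17.6%. Il21 was found more often in Tnf-positive cells at both ages, by 14.8 points (3.06 to 28.2) and 11.5 points (2.97 to 21.9), and at 3000 UMIs in 22.0% against 10.7% and 17.6% against 8.98%. Il2 showed no such overlap with Ifng or Il21 beyond its interval in CD4 T cells at either age, and its positive cells at 7 weeks had a median of 10317 UMIs against 5522. In CD8 T cells at 7 weeks 9 of 23 Tnf-positive cells had an Lta UMI, 39.1% against 4.73% of the others (14.4% against 3.22% at 3000 UMIs), and at 12 weeks 3 of 36 did.

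Counting Ifng, Il21, Il2, Tnf, Lta and Il10 together, 60.8% and 50.1% of CD4 T cells had at least 1 of them, and 11.4% and 6.13% had at least 3. Cells with exactly 3 were deep, with medians of 9229.5 UMIs at 7 weeks and 9170 at 12 weeks against 5262.5 and 4375 in cells with none. In B cells 32.5% and 21.6% had at least 1.

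The genes whose detection most resembled each cytokine were ranked by the smaller, over both ages, of the difference in share at 3000 UMIs between positive and negative cells of the class; positive cells remained deeper before thinning, and the values are descriptions within 1 library each. For Ifng in CD4 T cells (101 and 195 positive cells) these were Lag3, Tbc1d4, Pdcd1, Cd200, Rgs16, Cd82, Lgals1 and Nkg7. Lag3, an inhibitory receptor, was found in 55.1% of Ifng-positive and 28.0% of Ifng-negative cells at 7 weeks and in 56.7% and 26.1% at 12 weeks. Pdcd1, which encodes the inhibitory receptor PD-1, was found in 57.5% against 24.8% and 45.5% against 22.0%. For Il21 (62 and 118 positive cells) they were Tbc1d4, Lag3, Tnfrsf4, Maf, Pdcd1, Bcl2a1b, Izumo1r and Tnfsf8. The transcription factor gene Maf stood at 60.4% against 28.5% and 64.6% against 27.9% for Il21, and the costimulatory receptor gene Tnfrsf4 at 64.3% against 28.7% and 67.3% against 28.5%.

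For Il10 in CD4 T cells (17 and 44 positive cells) the 8 genes were Lag3, Tnfrsf4, Glrx, Ctla4, Capg, Tnfrsf18, Cxcr6 and Ctsb. Of these, Tnfrsf4, Ctla4, Capg and Tnfrsf18 are also markers of regulatory T cells. Whether cells of this class held Foxp3 RNA that was not captured was not tested. Lag3 led with 72.4% against 35.2% at 7 weeks and 86.8% against 30.7% at 12 weeks, and Ctla4, an inhibitory receptor gene that regulatory T cells carry, stood at 50.9% against 19.3% and 67.4% against 17.8%. For Ifng in CD8 T cells (73 and 145 positive cells) they were S100a6, Ccl5, Rgs1, Lgals1, Ccl4, S100a4, Gimap7 and Lag3. The chemokine gene Ccl5 stood at 89.0% against 53.1% and 90.7% against 49.8%. Lag3 was thus among the 8 for Ifng, Il21 and Il10 in CD4 T cells and for Ifng in CD8 T cells.

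**Figure D5:**
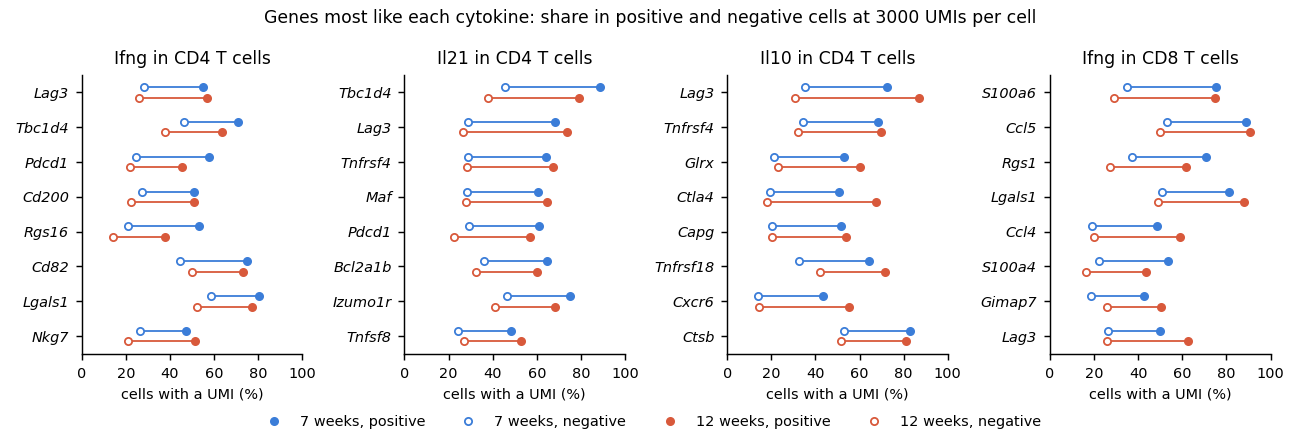
The 8 genes most like Ifng, Il21 and Il10 in CD4 T cells and Ifng in CD8 T cells, with the share of cells holding a UMI at 3000 UMIs per cell (horizontal axis, percent). Filled points are cells positive for the cytokine and open points negative cells, blue at 7 weeks and red at 12 weeks; Lag3 stands at 72.4% in Il10-positive and 35.2% in Il10-negative CD4 T cells at 7 weeks.

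The gene lists below are counts in CD4 T cells unless another class is named, to be read beside the 8.25% of all genes tested that were past the fold with a higher value and the 10.3% with a lower one. Of 13 receptor genes for the members, 1 was higher and 0 were lower. That was Ifngr1, the ligand-binding chain for interferon gamma, with 203 and 643 UMIs and a ratio of 1.54 (1.32 to 1.82); it was 1.57 (1.32 to 1.89) in CD8 T cells, 1.77 (1.41 to 2.21) in Ncr1 cells and 0.985 in Foxp3 T cells. Il21r, the Il21 receptor, and Il2rg, the chain shared by the receptors for Il2 and Il21, had ratios of 0.984 and 1.001 in CD4 T cells. Of 16 other T cell cytokine genes, 2 were higher and 4 lower: Ccl5 stood at 2.13 (1.999 to 2.27), Ccl3 at 0.387 (0.334 to 0.447) and Tnfsf14, the family member LIGHT, at 0.446 (0.314 to 0.634), and Il4 (higher), Lif and Areg (lower) had intervals that include 1. Among Foxp3 T cells 4 of the 11 with enough UMIs were higher and 1 was lower, where 14.7% of all genes tested were higher and 15.3% lower. The higher ones were Csf1 at 2.15 (1.11 to 4.39), Tnfsf11 at 3.35 (1.297 to 10.2), Xcl1 at 2.15 (1.48 to 3.16) and Ccl3 at 2.39 (1.63 to 3.55), and the lower one was Ebi3, a subunit gene of interleukin 35, at 0.335 (0.139 to 0.734).

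Among 11 type 1 helper genes 1 was higher, Il12rb1 at 1.95 (0.991 to 4.19), and 1 lower, Runx3 at 0.659 (0.545 to 0.798), while Nkg7 and Cxcr3 stood at 1.01 and 1.03. Among 11 follicular helper genes 0 were higher and 2 lower, Tox2 at 0.645 (0.524 to 0.795) and Angptl2 at 0.605 (0.524 to 0.699). Among 8 type 1 regulatory genes 2 were higher, Prdm1 at 1.60 (1.04 to 2.54) and Gzmb at 1.69 (1.004 to 2.99), and 2 lower, Ahr at 0.533 (0.374 to 0.760) and Eomes at 0.552 (0.260 to 1.19); Lag3 stood at 1.44 (1.32 to 1.57). Type 17 genes were scarce: of 6, only Rora and Ccr6 had enough UMIs, and Ccr6 had 2 and 24 UMIs and a ratio of 5.85 (1.45 to 51.1).

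Of 17 genes that interferon gamma induces, 3 were higher at 12 weeks in CD4 T cells, Gbp2 at 1.69 (1.39 to 2.07), Gbp7 at 1.73 (1.41 to 2.12) and Iigp1 at 1.74 (1.33 to 2.29), and 2 were lower, Cxcl10 at 0.416 (0.340 to 0.510) and Cd274 at 0.661 (0.499 to 0.877). The median log2 ratio of the list was 0.25. Psmb8 and Psmb9, subunits of the immunoproteasome and the list's genes with the most UMIs, stood at 1.19 and 1.13.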

How the data were processed

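Per the labels' protocols, libraries were made with the 10x Genomics Chromium 3′ kit, and, per the submitters' processing notes, the tool named is Cell Ranger 1.3.1 and the build mm10. Which annotation was counted is not given in the sources used here. What the authors deposited were whole-number UMI counts per gene and barcode, 1113 barcodes and 8701184 UMIs at 7 weeks and 2812 and 19288252 at 12 weeks. Barcodes with under 200 genes or over 10% mitochondrial UMIs were removed (4 and 8), as were the highest doublet scores, from 2 simulated doublets per barcode, up to 0.8% per 1000 barcodes (10 and 63). A Cd3 UMI and under 2 Cd79a UMIs were added to the T cell gates, and no Cd3 UMI to the B cell gate. Shares carry exact (Clopper-Pearson) intervals, share differences Newcombe intervals, and CPM ratios exact conditional binomial intervals. A count of 0 is given the limit of 3 counts. Shares at 3000 UMIs are exact expectations. The scripts were tested on simulated data. Python 3.11.15, numpy 2.4.6, scipy 1.17.1, pandas 2.3.3, scikit-learn 1.9.0 and matplotlib 3.10.9 were used. All 9 members were named, with the 8 genes most like Ifng, Il21 and Il10 and, from each list, those past the fold or with the most UMIs. A result that needs 1 further gene of these lists is not reported here. The members and lists were chosen with earlier results of these data known.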

Additional observations from a re-analysis of the deposited data

Results flagged for a closer look

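With all cells counted, Ifng went in opposite directions in Ncr1 cells and CD4 T cells. Its ratio of 12 over 7 weeks was 1.46 (1.12 to 1.90) in Ncr1 cells, from 122 and 112 UMIs, and 0.535 (0.471 to 0.607) in CD4 T cells, from 474 and 520 UMIs. Of the 112 UMIs, 59 lay in 1 Ncr1 cell. Without the highest cell of each library the log2 ratio in Ncr1 cells was -0.25, and without the 5 highest the ratio was 0.855 (0.550 to 1.31), so the opposite direction rests on that cell. The difference between the classes was not tested, since each age is 1 library.

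With the gates as set, Lta also went in opposite directions, with a ratio of 3.35 (1.72 to 7.01) in Foxp3 T cells, from 12 and 40 UMIs, and 0.657 (0.476 to 0.910) in CD4 T cells, from 69 and 93 UMIs. Of the 40 UMIs, 13 and 10 lay in cells of 40361 and 28043 UMIs with 1 Foxp3 UMI each. The log2 ratio in Foxp3 T cells, 1.74, was -0.019 with at least 2 Foxp3 UMIs and -0.061 with gate genes read after thinning. This difference was not tested either.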

How the results depend on the processing

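Results were recomputed under 442 combinations of a result and an alternative, for 48 values. Of the alternatives for the main comparisons, 128 left the value inside its counting interval and 8 moved it outside. For the other values these numbers were 300 and 2, and 4 had the opposite direction. An opposite direction was counted only where the interval of the main value left out 0. Il10 in CD4 T cells changed sign when gate genes were read after thinning and is thus among the 8. Cells left out here were also taken out of the class totals. For the highest and the 5 highest cells, the same number was left out at both ages although the classes differed in size. The log2 ratio of Ifng in CD4 T cells, -0.90, was -0.67 without the highest cell and -0.35 without the 5 highest. That of Il10 in CD4 T cells, 0.19, was 0.63 and 1.45 under these settings and -0.67 when gate genes were read after thinning, where Il10 in Foxp3 T cells was -0.96 in place of -1.71. That of Ifng in CD8 T cells, -0.18, was -0.63 without cycling cells and -0.50 without cells over 15000 UMIs. In Foxp3 T cells the log2 ratio of Lta, 1.74, was -0.061 with gate genes read after thinning and -0.019 with at least 2 Foxp3 UMIs, and in Ncr1 cells that of Ifng, 0.54, was -0.23 without the 5 highest cells and -0.25 without the highest. The cause was not tested. Leaving out the highest cell, cells over 15000 UMIs or Foxp3 T cells with Cd8 or Ncr1 UMIs was chosen after seeing the data. No paired analysis was possible because each age has 1 library; for the same reason no replicate could be left out.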
